A study of Gallus gallus with 6 samples.

Results

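The genes described here move chloride, bicarbonate, sodium and protons across the epithelium of the chicken ileum, which is the far end of the small bowel. They are 8 of the 17623 rows of the expression table: OTOP3, SLC26A3, SLC26A6, SLC9A2, SLC9A3, CFTR, SLC4A4 and ATP1B1. Each was taken by its gene symbol, and each symbol matched a single row. The set was chosen by symbol with the expression values of the same comparison, FOS against CT, already in view, so the differences between the groups are given for these genes as a description and not as a test. The study profiled ileal RNA of Taiping chickens, labelled as male and aged 2 months, with 3 libraries in each of 2 groups. Birds of the FOS group had fructooligosaccharide, a short fructose chain that gut bacteria ferment, in their drinking water at 1 mL per litre, on top of a basal diet. Birds of the control group (CT) had the basal diet of corn and soybean, which both groups shared. No label states that each library was made from its own bird, so every p-value refers to the spread among these 6 libraries. W-linked transcripts, given below, were near absent from library 2 of each group only. Library 2 was therefore not a technical repeat of libraries 1 and 3, but the spread between libraries 1 and 3 may be technical.

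Absorption of salt in the small intestine couples sodium/proton exchangers with chloride/bicarbonate exchangers in the brush border, so that sodium and chloride enter while protons and bicarbonate leave. Chloride and bicarbonate are secreted through CFTR, a channel in the apical membrane, and bicarbonate is loaded from the blood side by the cotransporter SLC4A4. The sodium pump in the basolateral membrane keeps cell sodium low and so drives all of these steps. Otopetrins, the family of OTOP3, are proton-selective channels, best known in mouse for OTOP1, the sour taste receptor.

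Total deposited counts were 14668289 to 17793586 in the FOS libraries and 16056240 to 18106651 in the CT libraries. The labels call every bird male, yet transcripts of the W-linked gene HINTW stood at 158, 0.0697 and 111 CPM (counts scaled to a common library size) in FOS 1 to 3 and at 147, 0.173 and 149 CPM in CT 1 to 3. Males carry no W chromosome, so 4 of the 6 libraries, 2 in each group, went against the label, and library 2 of each group did not. Of the tissue label, only the presence of absorptive enterocytes was checked, with 15 markers. All 15 were found, and their summed level was 22068 to 29747 CPM in FOS libraries and 18477 to 23765 CPM in CT libraries. ANPEP was the largest part, at 6232 to 11734 CPM, and the sum cannot tell ileum from other small bowel. Because whole tissue was sequenced, fewer cells of a type and less RNA per cell cannot be told apart in any value below.

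Levels of different genes are compared here in FPKM, the authors' value per length of transcript and per library depth. ATP1B1, a subunit of the sodium pump, was the most abundant of the 8 genes, at 443 ± 95.8 FPKM (SD over 6 libraries). SLC26A3, a chloride/bicarbonate exchanger, followed at 153 ± 37.8 FPKM, a ratio of 2.9 between the means, and its range did not meet that of ATP1B1. SLC4A4, at 41.4 ± 3.85 FPKM, came next, again with no overlap. The next places were not separated by more than the spread between libraries, and the order of SLC4A4 and SLC26A6 held in 5 of 6. SLC26A6 stood at 29.8 ± 13.5 FPKM, SLC9A2 at 28.3 ± 10.5 FPKM and CFTR at 22.1 ± 3.13 FPKM, and the order of SLC26A6 and SLC9A2 held in 3 of 6 libraries. SLC9A3 was lower than CFTR in 6 of 6 libraries, at 11.9 ± 1.65 FPKM. OTOP3 was the lowest in 6 of 6 libraries, at 1.24 ± 1.86 FPKM, with an SD larger than its mean.

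**Figure D1:**
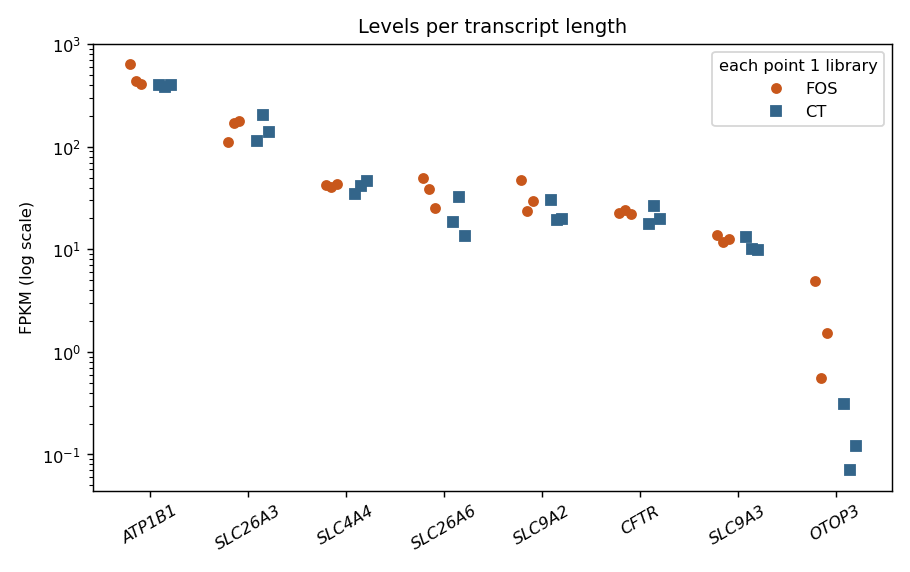
Level of each of the 8 genes in FPKM (vertical axis, log scale), with 1 point per library, FOS libraries as circles and CT libraries as squares. ATP1B1 lies above the other genes and OTOP3 below them in every library, and OTOP3 is the gene whose points spread most.

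The 2 chloride/bicarbonate exchangers of the brush border differed in level and in how their libraries were ordered. SLC26A3, whose loss in humans causes congenital chloride diarrhoea, had 363, 534 and 545 CPM in FOS 1 to 3 and 335, 631 and 412 CPM in CT 1 to 3. The groups overlapped throughout their range, with the highest library in CT 2 and the lowest in CT 1. The log2 fold change of FOS over CT was 0.07 (SE 0.26), and leaving out 1 library at a time gave -0.12 to 0.36. SLC26A6, a related exchanger that also carries oxalate, had 136, 103 and 65.2 CPM in FOS 1 to 3 and 46.3, 84.1 and 33.3 CPM in CT 1 to 3. FOS 1 and FOS 2 lay above all CT libraries, while FOS 3 lay below CT 2. Between libraries of the same replicate number, FOS was higher in 3 of 3 cases, as for 16.6% of all genes tested. No label says that these libraries were paired. The mean of SLC26A6 was 101 ± 35.4 CPM in FOS and 54.5 ± 26.4 CPM in CT (SD, n = 3 each), a log2 fold change of 0.89 (SE 0.38). Without CT 2, the highest CT library, this was 1.35, and without FOS 1 it was 0.63.

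Within a library, the balance between the 2 exchangers also varied. SLC26A3 exceeded SLC26A6 per length by 2.24, 4.36 and 7.03 times in FOS 1 to 3 and by 6.08, 6.31 and 10.4 times in CT 1 to 3. The ratio averaged 4.54 ± 2.4 in FOS and 7.6 ± 2.43 in CT (SD, n = 3 each), and the groups overlapped, FOS 3 lying above 2 of the CT libraries. SLC26A4 and SLC26A9 of the same family were scarce. SLC26A4, an anion exchanger of ear, thyroid and kidney in mammals, had 9, 3 and 18 counts in FOS 1 to 3 and 11, 7 and 4 counts in CT 1 to 3. SLC26A9, a chloride transporter of stomach and airway in mammals, had 95, 0 and 0 counts in FOS 1 to 3 and 0, 2 and 0 counts in CT 1 to 3, so that nearly all of its reads came from FOS 1. The 4 libraries with 0 counts allow up to 3 counts each.

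CFTR and SLC4A4, the apical exit and the basolateral entry of secreted bicarbonate, were the least variable of the 8 genes within FOS, with an SD of 5.22% of the mean for CFTR and 4.58% for SLC4A4. In CT these shares were 24.1% and 14.5%. CFTR had 118, 122 and 110 CPM in FOS 1 to 3 and 85.4, 132 and 93.8 CPM in CT 1 to 3. The 3 FOS libraries lay close together inside the CT range, between CT 3 and CT 2. SLC4A4 had 152, 139 and 144 CPM in FOS 1 to 3 and 113, 140 and 151 CPM in CT 1 to 3, and the groups overlapped. The log2 fold changes were 0.17 (SE 0.17) for CFTR and 0.11 (SE 0.13) for SLC4A4. Leaving out 1 library at a time gave 0.04 to 0.38 and -0.01 to 0.19. Per length, CFTR stood at 0.526, 0.595 and 0.516 of SLC4A4 in FOS 1 to 3 and at 0.513, 0.638 and 0.422 of it in CT 1 to 3.

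The 2 sodium/proton exchangers of the brush border were both measured in all libraries. SLC9A2, which encodes NHE2, had 225, 108 and 131 CPM in FOS 1 to 3 and 131, 86.4 and 86 CPM in CT 1 to 3. FOS 1 was far above the rest, FOS 3 equalled CT 1 to 3 digits, and FOS 2 lay below CT 1. The mean was 155 ± 61.8 CPM in FOS and 101 ± 26 CPM in CT (SD, n = 3 each), and the log2 fold change of 0.61 (SE 0.30) became 0.25 without FOS 1. SLC9A3, which encodes NHE3, the main route of sodium absorption in the mammalian ileum, had 36.5, 29.7 and 31.7 CPM in FOS 1 to 3 and 32, 25.3 and 23.9 CPM in CT 1 to 3. The groups overlapped through CT 1, and the log2 fold change was 0.27 (SE 0.15), between 0.19 and 0.41 with 1 library left out.

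Per length, SLC9A2 exceeded SLC9A3 in all 6 libraries, by 3.43, 2.02 and 2.31 times in FOS 1 to 3 and by 2.28, 1.9 and 2.01 times in CT 1 to 3. FOS 1 held the highest ratio, and the other 5 libraries lay between 1.9 and 2.31. SLC9A8, an exchanger of the Golgi and, in mammals, of the brush border, had 47.5, 45.7 and 54.2 CPM in FOS 1 to 3 and 37.9, 46 and 34.2 CPM in CT 1 to 3, with overlap through CT 2 (log2 fold change 0.32, SE 0.14, edgeR adjusted p = 0.547). SLC9A4, a further exchanger of the family, was not analysed here.

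ATP1B1, the beta subunit that carries the sodium pump to the membrane, had 1522, 1008 and 920 CPM in FOS 1 to 3 and 877, 871 and 870 CPM in CT 1 to 3. All FOS libraries lay above all CT libraries, FOS 3 by a narrow margin and FOS 1 by far. The CT libraries were almost equal, with an SD of 3.47 CPM around a mean of 873 CPM, whereas the SD in FOS was 325 CPM around 1150 CPM. The log2 fold change was 0.40 (SE 0.20), and 0.15 without FOS 1.

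ATP1B3, an alternative beta subunit, had 46.1, 56.9 and 54.2 CPM in FOS 1 to 3 and 74.9, 52.3 and 67.1 CPM in CT 1 to 3, with overlap through CT 2 (log2 fold change -0.31, SE 0.16, edgeR adjusted p = 0.61). ATP1B1 exceeded it per length by 27.8, 14.8 and 14.2 times in FOS 1 to 3 and by 9.86, 14 and 10.9 times in CT 1 to 3. FXYD2, a modulator of the pump in the kidney, had at most 3 counts in any library, and FXYD6, a relative of it, had a log2 fold change of 0.22 (SE 0.13).

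**Figure D2:**
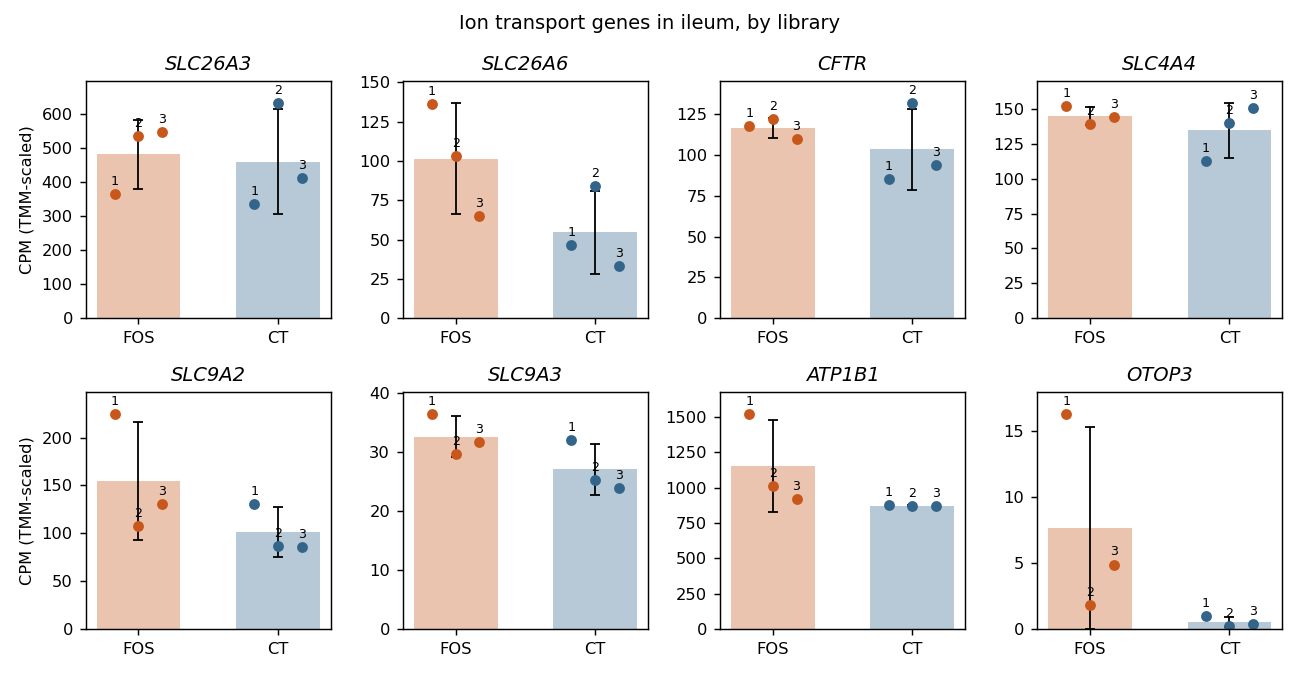
CPM of the 8 genes (vertical axes start at 0), FOS left and CT right in each panel. Points are single libraries numbered 1 to 3, bars are means and error bars are SD (n = 3). FOS 1 is the highest library for SLC26A6, SLC9A2, SLC9A3, ATP1B1 and OTOP3, and by a narrow margin over CT 3 for SLC4A4. It is not the highest for CFTR, and it is the lowest FOS library for SLC26A3.

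OTOP3 showed the largest difference in ratio among the 8 genes, at the lowest level. It had 241, 26 and 87 counts in FOS 1 to 3 and 16, 4 and 7 counts in CT 1 to 3, which is 16.3, 1.81 and 4.88 CPM in FOS and 0.962, 0.231 and 0.373 CPM in CT. Every FOS library lay above every CT library, and the FOS libraries differed among themselves more than FOS 2 differed from CT 1. The mean was 7.65 ± 7.62 CPM in FOS and 0.522 ± 0.387 CPM in CT (SD, n = 3 each), and the fitted log2 fold change was 3.87 (SE 0.91). It was 2.69 without FOS 1 and 4.62 without CT 1, and on log2(FPKM + 1) it was 1.30, since adding 1 exceeds the CT level.

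OTOP2, a second otopetrin, is the adjacent protein-coding gene to OTOP3 in the RefSeq annotation of the chicken assembly GRCg7b. It had 14.5, 10.7 and 7.8 CPM in FOS 1 to 3 and 10.9, 14.7 and 6.4 CPM in CT 1 to 3, with overlapping groups (log2 fold change 0.04, SE 0.35, edgeR adjusted p = 0.982). OTOP3 per length stood at 0.709, 0.107 and 0.395 of OTOP2 in FOS 1 to 3 and at 0.0551, 0.00954 and 0.0363 of it in CT 1 to 3. Per length OTOP2 thus exceeded OTOP3 in all 6 libraries, least in FOS 1. HID1, the adjacent gene on the other side, had 77.5, 71.1 and 74.6 CPM in FOS 1 to 3 and 63.3, 52.4 and 61.7 CPM in CT 1 to 3 (log2 fold change 0.33, SE 0.11, edgeR adjusted p = 0.481). Of the genes directly beside the 8 genes, 10 were tested and 0 were called by edgeR, where it called 0.0217% of all genes. At an unadjusted p under 0.05 there were 2, HID1 and GC, both higher, where 5.14% of all genes were higher at that level. GC, the vitamin D binding protein beside SLC4A4, had 5.33, 3.76 and 4.77 CPM in FOS 1 to 3 and 2.88, 2.49 and 2.99 CPM in CT 1 to 3. The proton channel of leukocytes, HVCN1, had a log2 fold change of -0.03 (SE 0.23).

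Set side by side, all 8 genes had a higher mean in FOS than in CT, where 51.1% of the 13807 genes tested had a positive log2 fold change. The median log2 fold change of the 8 was 0.33, against 0.01 over all genes tested, and it was 0.21 without FOS 1. Of the 9 marker lists, the interferon list had the highest median log2 fold change, 0.81 (7 of 8 positive). That list summed to 4.49 times the CT mean in FOS 1. In FOS 2 and FOS 3 it summed to 0.674 and 0.755 of that mean, below every CT library. The median was 0.48 for enterocytes (13 of 15), 0.40 for goblet cells (3 of 5) and 0.33 for enteroendocrine cells (10 of 11). It was 0.03 for neurons and glia (5 of 10), and -0.15 for both crypt cells (3 of 9) and stroma (1 of 9). Smooth muscle had -0.30 (0 of 11) and leukocytes had -0.35 (1 of 10). The part of these lists in the values of the 8 genes was not tested. SLC26A3 turned slightly negative when FOS 2, FOS 3, CT 1 or CT 3 was left out, and SLC4A4 when CT 1 was left out. The groups did not overlap for 2 of the 8, OTOP3 and ATP1B1, both higher in FOS, as for 8.58% of all genes tested. Between libraries of the same replicate number, 5 of the 8 were higher in FOS in all 3 pairs (OTOP3, SLC26A6, SLC9A2, SLC9A3 and ATP1B1), as were 16.6% of all genes tested, SLC26A3 and CFTR were higher in 2 pairs, and SLC4A4 in 1. Past an adjusted p of 0.05, the quasi-likelihood test of edgeR called 0 of the 8, where it called 0.0217% of all genes (3 genes, all higher in FOS). At an unadjusted p under 0.05 it had 1 of the 8, OTOP3, where 5.14% of all genes were higher at that level. DESeq2 called OTOP3 (0.930% of all genes called), and with the replicate number as a block it called OTOP3 and SLC26A6 (0.784% of all genes called). These counts come from the comparison with which the genes were chosen, so nothing is read from them.

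**Figure D3:**
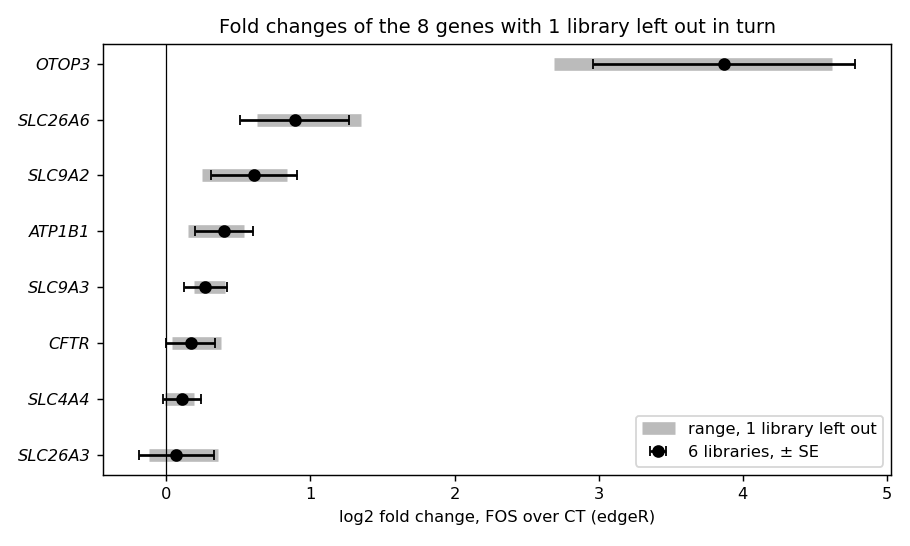
Log2 fold change of FOS over CT for the 8 genes (horizontal axis), as points with SE from edgeR over 6 libraries, with grey bars for the range when 1 library is left out in turn. OTOP3 lies between 2.69 and 4.62, SLC26A6 between 0.63 and 1.35, and the bars of SLC26A3 and SLC4A4 cross 0.

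Other genes of ileal ion transport were described with 10 lists by role, which hold 134 symbols besides the 8 genes. Of these, 117 were found and 101 passed the filter on low counts. The edgeR test called 0 of the 101 (0.0217% of all genes called). At an unadjusted p under 0.05 there were 8 higher and 2 lower, against 5.14% and 4.27% of all genes, and DESeq2 called 0. With the replicate number as a block DESeq2 called 1, CLCA1. Groups did not overlap for 10 genes higher and 6 lower, where 8.58% and 7.84% of all genes did so. The median log2 fold change was 0.08, against 0.01 over all genes tested. It was 0.05 without FOS 1 or without CT 3, and 0.13 without FOS 3.

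In the list of scaffold proteins and regulators of exchangers and CFTR, 8 of 9 tested had a positive log2 fold change, with a median of 0.22. The list is not limited to scaffolds of the brush border and includes AHCYL1 and AHCYL2. The scaffold SLC9A3R2 had the negative value, -0.26. SLC9A3R1, the NHERF1 scaffold that binds NHE3 and CFTR, had 879, 897 and 662 CPM in FOS 1 to 3 and 644, 848 and 634 CPM in CT 1 to 3, with overlapping groups. PDZD3, a related scaffold, had 75.6, 59.6 and 64.5 CPM in FOS 1 to 3 and 50.2, 57.6 and 50.7 CPM in CT 1 to 3, without overlap. AHCYL1, the IRBIT protein that activates SLC4A4 and CFTR in mammals, had 241, 188 and 214 CPM in FOS 1 to 3 and 165, 187 and 161 CPM in CT 1 to 3. Its lowest FOS library stood just above its highest CT library. The edgeR adjusted p was 0.503 for PDZD3 and 0.51 for AHCYL1. PDZK1 had a log2 fold change of 0.08 (SE 0.16) and AHCYL2, a relative of AHCYL1, of 0.40 (SE 0.18), with overlapping groups in both.

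Of the bicarbonate transporters and carbonic anhydrases, 12 were tested besides SLC4A4, and 8 had a positive and 4 a negative log2 fold change. SLC4A2, the basolateral chloride/bicarbonate exchanger AE2, had 203, 209 and 194 CPM in FOS 1 to 3 and 156, 182 and 152 CPM in CT 1 to 3. The groups did not overlap, and the log2 fold change was 0.30 (SE 0.11, edgeR adjusted p = 0.499). The membrane-bound carbonic anhydrase CA4 had 324, 441 and 301 CPM in FOS 1 to 3 and 243, 534 and 188 CPM in CT 1 to 3. Library 2 was its highest in both groups, as CT 2 was for SLC26A3, SLC26A6 and CFTR within CT. The cytosolic enzyme CA2 had a log2 fold change of 0.05 (SE 0.12) and CA7 of 0.43 (SE 0.33). The bicarbonate transporters SLC4A7 and SLC4A8 had log2 fold changes of -0.05 (SE 0.19) and -0.30 (SE 0.20). SLC4A8 had 8.1, 9.62 and 9.71 CPM in FOS 1 to 3. In CT 1 to 3 it had 10.1, 10.2 and 13.5 CPM, so it was lower in FOS without overlap (edgeR adjusted p = 0.678). Of the 12, groups did not overlap for 1 higher and 1 lower, where 8.58% and 7.84% of all genes did so.

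Among 17 tested genes of chloride secretion other than CFTR, 11 had a positive and 6 a negative log2 fold change. CLCA1, a secreted protein of mucus-producing cells in mammals, had 3665, 4847 and 3815 CPM in FOS 1 to 3 and 2216, 3411 and 1704 CPM in CT 1 to 3. Its groups did not overlap (log2 fold change 0.75, SE 0.27, edgeR adjusted p = 0.496). It was the call of DESeq2 with the block, at an adjusted p of 0.00401. CLCN2, a chloride channel, had 153, 100 and 106 CPM in FOS 1 to 3 and 63.6, 104 and 52.5 CPM in CT 1 to 3, overlapping through CT 2 (log2 fold change 0.71, SE 0.28, edgeR adjusted p = 0.51). KCNMA1, a potassium channel also used by smooth muscle, had 33.8, 39.5 and 42.7 CPM in FOS 1 to 3 and 47.6, 45.4 and 64.8 CPM in CT 1 to 3, lower in FOS without overlap (edgeR adjusted p = 0.507). SLC12A2, which loads chloride for secretion, and KCNQ1, a potassium channel that sustains it, had log2 fold changes of -0.13 (SE 0.18) and 0.07 (SE 0.22).

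In the list of signals that set the balance of absorption and secretion, 7 of 19 tested genes had a positive and 12 a negative log2 fold change. ADCY6, an adenylate cyclase that makes the cyclic AMP which opens CFTR in mammals, had 193, 184 and 185 CPM in FOS 1 to 3 and 117, 147 and 142 CPM in CT 1 to 3. The groups were well apart, and the log2 fold change was 0.47 (SE 0.12, edgeR adjusted p = 0.434). VIPR2, a receptor for vasoactive intestinal peptide, had 2.57, 3.55 and 4.32 CPM in FOS 1 to 3 and 5.47, 6.3 and 6.45 CPM in CT 1 to 3, lower in FOS without overlap (edgeR adjusted p = 0.48). The other receptor for this peptide in the list, VIPR1, had a log2 fold change of -0.06. Whole tissue was sequenced, so the cells behind the VIPR2 value are not known. LPAR2, a lysophosphatidic acid receptor that binds NHERF scaffolds in mammals, had 314, 214 and 245 CPM in FOS 1 to 3 and 196, 214 and 185 CPM in CT 1 to 3. FOS 2 and CT 2 were equal to 3 digits (edgeR adjusted p = 0.527). GUCY2C, the guanylin receptor that inhibits sodium uptake, stood at 771, 960 and 1002 CPM in FOS 1 to 3 and at 720, 889 and 693 CPM in CT 1 to 3, with overlapping groups.

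Among the remaining lists, the vacuolar proton pump had 12 of 17 tested subunits with a positive log2 fold change and a median of 0.19, with 3 subunits higher without overlap and 0 lower, where 8.58% and 7.84% of all genes did so. One of the 3, ATP6V0E1, had 109, 118 and 105 CPM in FOS 1 to 3 and 73.6, 94.1 and 90.3 CPM in CT 1 to 3 (edgeR adjusted p = 0.483). ATP6AP2, an accessory subunit, had 103, 109 and 103 CPM in FOS 1 to 3 and 90.3, 99.7 and 82.7 CPM in CT 1 to 3. ATP6V0D2 had the highest log2 fold change of the 101 genes, 1.30 (SE 0.64), on 5 to 19 counts in FOS and 3 to 10 counts in CT, with overlapping groups. For the epithelial sodium channel and its regulators 6 of 9 were positive, with a median of 0.14, and for aquaporins 3 of 7, with a median of -0.15. Of the first of these lists, the tested channel subunits SCNN1A, SCNN1B and SCNN1G had log2 fold changes of 0.18, -0.14 and -0.43. The proteases FURIN and ST14, which can cleave and activate the channel in mammals, had log2 fold changes of 0.16 (SE 0.10) and 0.27 (SE 0.18). SGK1, a kinase that raises both the channel and NHE3 at the membrane in mammals, had 196, 142 and 139 CPM in FOS 1 to 3 and 135, 159 and 110 CPM in CT 1 to 3. Of the water channels, AQP10 and AQP1 had negative log2 fold changes, -0.16 (SE 0.15) and -0.27 (SE 0.24), and AQP11 a positive one, 0.23 (SE 0.30), all with overlapping groups. The sodium pump genes without ATP1B1 were split 2 to 2, and the other tested exchangers had a median of 0.01.

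**Figure D4:**
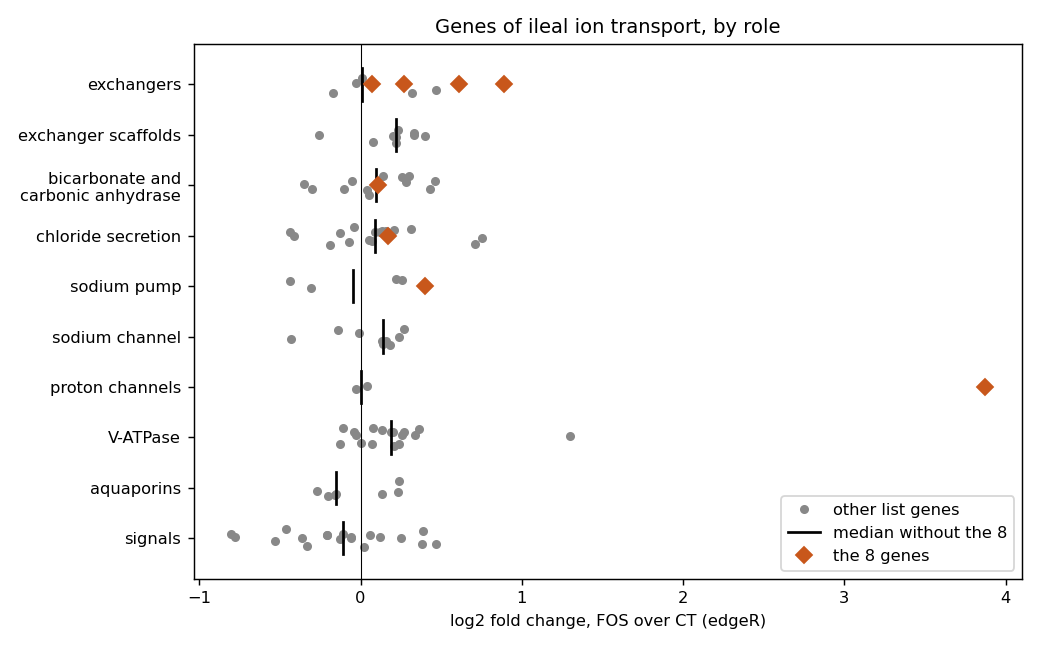
Log2 fold change of FOS over CT (horizontal axis) for the 101 other ion transport genes tested (grey points) by role, with the median of each list as a black line and the 8 genes as diamonds in their lists. The 8 diamonds all lie right of 0, OTOP3 alone at 3.87, and the grey points lie between -0.80 and 1.30.

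Another contrast set the 4 libraries with W-linked transcripts against the 2 without, in a model that also held the diet group. It uses the same 6 libraries, and the genes were chosen with earlier results of these data known, so it is not independent of that choice. The edgeR test called 0 of the 8 genes, where it called 0.464% of all genes tested, and 1 of the 8, OTOP3, had an unadjusted p under 0.05, as did 4.66% of all genes. OTOP3 averaged 5.62 CPM in the 4 libraries and 1.02 CPM in the other 2, with a log2 difference of 2.21 (SE 0.75, edgeR adjusted p = 0.776). Of the 4, FOS 1 had 16.3 CPM, FOS 3 had 4.88, CT 1 had 0.962 and CT 3 had 0.373 CPM. Of the 2, FOS 2 had 1.81 CPM, above CT 1 and CT 3, and CT 2 had 0.231 CPM. SLC26A3 averaged 414 CPM in the 4 libraries and 583 CPM in the 2, a log2 difference of -0.50 (SE 0.22, edgeR adjusted p = 1). CFTR averaged 102 CPM and 127 CPM in the same order (log2 difference -0.34, SE 0.14, edgeR adjusted p = 1). In both groups the library without W-linked transcripts also carries replicate number 2, so the absence of these transcripts and that number cannot be told apart.

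The 3 genes closest in pattern to each of the 8 were taken as those with the highest Pearson correlation of log2 CPM over the 6 libraries, among 9021 named genes (9022 for OTOP3) with a mean of at least 10 CPM. These are descriptions over 6 libraries that share the diet groups, and with so many candidates high values occur for every gene. For SLC26A6 they were IFITM1 (0.9956), an interferon-induced membrane protein, ENDOG (0.9902) and FAM162BL (0.9824). IFITM1 had 564, 448 and 313 CPM in FOS 1 to 3 and 219, 350 and 152 CPM in CT 1 to 3. The genes closest to SLC26A3 were FOXA1 (0.9885), OARD1 and CADM1, with FOXA1, a transcription factor of gut epithelium, at 20.6 to 23.6 CPM in FOS and 20.5 to 25.1 CPM in CT. CFTR had NET1 (0.9950), LEMD3 and SYNJ2BP, and SLC4A4 had CEBPG (0.9839), ATP13A2 and HTD2. For SLC9A2 they were PEX10 (0.9990), ARPC1A and CUL2, and for SLC9A3 WASHC1 (0.9878), STN1 and CARS2. ATP1B1 had SF3A2 (0.9968), SDHB, a subunit of respiratory complex II, and PLA2G10L, and 145 genes exceeded 0.95 with it. OTOP3 had DDX20 (0.9912), MRPL44 and MYO18A.

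Markers of the cell types in the ileal wall also differed between libraries, and their relation to the 8 genes was not tested. Within the enterocyte list, the groups did not overlap for 5 of 15 genes, singled out after their values were seen, where 16.4% of all genes tested did not overlap in either direction. The sugar-digesting enzyme SI had 5216, 1465 and 2287 CPM in FOS 1 to 3 and 1398, 1189 and 1037 CPM in CT 1 to 3, and SLC5A1, the sodium-glucose cotransporter, ALPI, an alkaline phosphatase, and APOA4, an apolipoprotein, likewise had every FOS library above every CT library. FABP6, the bile acid binding protein of the ileum, had 4003, 1079 and 1506 CPM in FOS 1 to 3 and 5756, 5158 and 4529 CPM in CT 1 to 3, so every FOS library lay below every CT library. In the same list, TMPRSS15, the gene of enteropeptidase, had 0.54, 11.1 and 100 CPM in FOS 1 to 3. In CT 1 to 3 it had 0.721, 1.16 and 3.2 CPM, so the groups overlapped. Whether all libraries came from the same stretch of bowel was not tested. Summed levels of 11 enteroendocrine markers were 1060 to 1495 CPM in FOS and 726 to 860 CPM in CT, without overlap, with 11 of 11 markers found and FOS 1 the highest. The largest part was CHGA, at 521 to 883 CPM in FOS and 342 to 434 CPM in CT. Of the 11, 10 had a positive log2 fold change. Single genes were higher without overlap for 3, CHGA, PYY and NTS, where 8.58% of all genes were, and the rest overlapped. Of 11 smooth muscle markers, all found, the sum was 5329 CPM in FOS 1, 7773 and 8531 CPM in FOS 2 and FOS 3, and 7362 to 10269 CPM in CT. The 10 leukocyte markers, all found, summed to 5540 CPM in FOS 1, 12540 and 8491 CPM in FOS 2 and FOS 3, and 10535 to 11407 CPM in CT, most of it CD74. Of the 10, PTPRC, CD3D, CD4 and LCP1 had every FOS library below every CT library, where 7.84% of all genes did so. PTPRC, the common leukocyte antigen, had 309, 354 and 337 CPM in FOS 1 to 3 and 455, 430 and 462 CPM in CT 1 to 3. The 9 stromal markers, all found, gave 4710 to 7282 CPM in FOS and 6873 to 7087 CPM in CT. Of the 9, 4 (COL1A2, PDGFRA, COL6A1 and FN1) were lower in FOS without overlap, where 7.84% of all genes were, and the rest overlapped. For crypt and dividing cells, 10 of 10 found, the sum was 654 to 1406 CPM in FOS, lowest in FOS 3, and 1173 to 1372 CPM in CT. Neuron and glia markers, 10 of 10 found, summed to 93.3 to 146 CPM in FOS and 135 to 155 CPM in CT. In each of these 2 lists 1 of 10 was lower in FOS without overlap, LGR5 and VIP, where 7.84% of all genes were. The rest overlapped.

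Of 9 goblet cell markers 5 were found, and their sum of 4280 to 5359 CPM in FOS and 2543 to 4111 CPM in CT was mostly CLCA1, which is also in the chloride list. Of the 5, 1 was higher without overlap, CLCA1, and 1 lower, TFF2, where 8.58% and 7.84% of all genes were. AGR2 had 970, 337 and 313 CPM in FOS 1 to 3 and 749, 562 and 737 CPM in CT 1 to 3, with overlapping groups. Interferon-stimulated genes, 8 of 10 found, summed to 4486 CPM in FOS 1, 673 and 754 CPM in FOS 2 and FOS 3, and 914 to 1156 CPM in CT. No marker found was at 0 in all libraries, and ASCL2, TFF2 and GFAP averaged under 1 CPM. FOS 1 was also the highest library in CPM for SLC26A6, SLC9A2, SLC9A3, SLC4A4, ATP1B1 and OTOP3. For SLC4A4 the margin was narrow, 152 CPM against 151 CPM in CT 3, and in FPKM CT 3 was higher (46.27 against 42.69 in FOS 1). Values of the 8 genes without FOS 1 are given above for SLC26A6, SLC9A2, ATP1B1 and OTOP3.

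**Figure D5:**
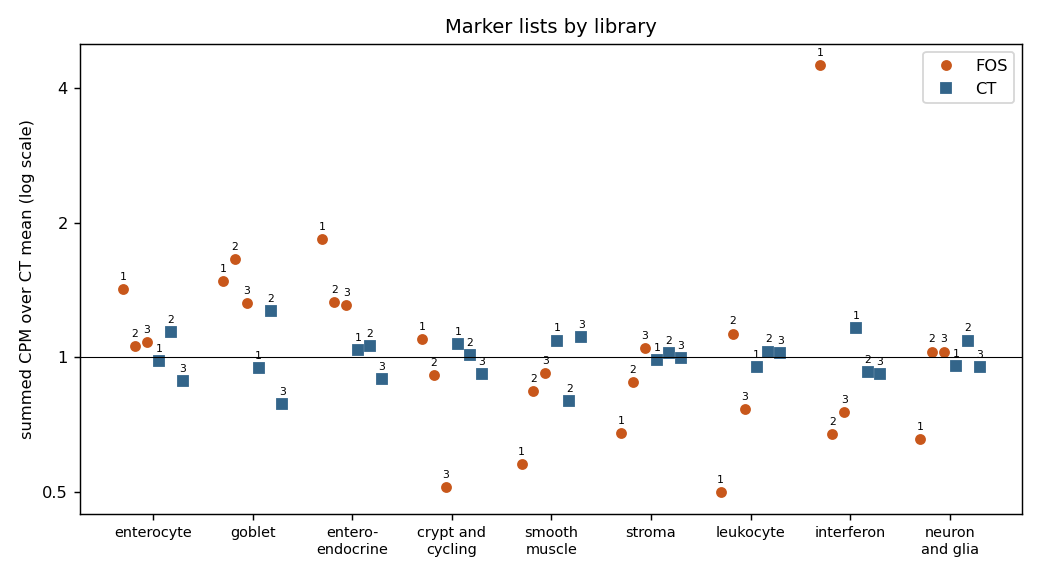
Summed CPM of each marker list relative to the CT mean (vertical axis, log scale, line at 1), with 1 numbered point per library, FOS as circles left of CT as squares. FOS 1 is the highest library for the enterocyte, enteroendocrine, crypt and interferon lists (1.42, 1.84, 1.1 and 4.49) and the lowest for the smooth muscle, stroma, leukocyte and neuron lists (0.577, 0.676, 0.499 and 0.657).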

How the data were processed

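Ileal RNA of 6 libraries was profiled. The labels' protocols give TRIzol extraction and a library kit for small RNA. As tools, the submitters' processing notes list fastp 0.18.0, DESeq2, HISAT2, Bowtie2 and StringTie, with no role for any; build and counting step: not given in the sources used here. The authors deposited expected counts (estimated counts, 8.06% of the values not whole at a tolerance of 1e-09) and FPKM values for each library. A further 12 value columns, of 6 libraries outside the samples described, were not used.

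Counts were rounded, then filtered with filterByExpr (13807 genes kept, all 8 genes among them), and TMM-scaled; edgeR 4.0.16 (R 4.3.3) gave quasi-likelihood p-values, adjusted over all genes by Benjamini-Hochberg, at 0.05. The SE was taken as the log2 fold change over the square root of F, and CPM uses TMM-scaled library sizes. Alternatives were other scalings and filters, DESeq2 1.42.0, limma 3.58.1 on voom weights or on log2 FPKM, a replicate block, a W-linked covariate and each library left out in turn.

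The members and lists were chosen with earlier results of these data known. Named list genes are a fixed set of partners and, per list, the 3 with the smallest unadjusted p and any called. HID1, GC, SI, SLC5A1, ALPI, APOA4, FABP6, TMPRSS15, ANPEP, SCNN1A, SCNN1B, SCNN1G, SLC9A3R2, VIPR1, ATP6V0A4 and AQP8 fall outside that rule. So do the named enteroendocrine, crypt, neuron, leukocyte and stromal markers, and the named goblet markers other than CLCA1. All of these were chosen after their values were seen. Some partners are not reported here. Symbols were matched to the table and then, through NCBI gene IDs, to RefSeq names (GRCg7b), taking the most abundant row of several. Counting may divide reads between close paralogs, which makes family members uncertain. Floors of 3 counts cover counting error only.

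Replicate numbers come from the titles, and no label says what a number marks. The deviations of same-numbered FOS and CT libraries from their group means had correlations of 0.240, 0.388 and 0.198. The number was used as a block in alternative fits, the edgeR one planned and the DESeq2 one added after the data were examined. The main fit had no block. Differently numbered libraries had -0.309 to 0.0652. The value for number 2 cannot show that the libraries were paired, because library 2 of each group was the one without W-linked transcripts. Libraries 1 and 3 of both groups held these transcripts. Among them the same numbers gave 0.240 and 0.198, and crossed numbers gave 0.00134 and 0.0652. So few pairs cannot show pairing either. On the main axis of variation over 1000 variable genes (41.7% of their variance), FOS 2 and CT 2 stood at 36.3 and 35.1. The rest stood at -21.0 to -15.7.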

Additional observations from a re-analysis of the deposited data

How the results depend on the processing

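Over 18 alternatives, 143 of 144 log2 fold changes of the 8 genes moved by less than the SD between libraries, and 139 were positive. The exception was OTOP3 on log2(FPKM + 1), at 1.30. Leaving out 1 of 3 libraries can hardly move a group mean by more than that SD. For those fits the count therefore does not measure how stable the values were. Without FOS 1, SLC9A2 went from 0.61 to 0.25 and ATP1B1 from 0.40 to 0.15, and both fell within it. With the replicate block edgeR called 3 genes, as without it, and 0 of the other ion transport genes; blocking moved the median of the 8 genes to 0.32, against 0.33. Genes called over the whole table numbered 135 with DESeq2, 114 with DESeq2 and the replicate block, and 1 with limma-voom, against 3, and 0 to 4 with 1 library left out. Of these, 0 were called without CT 1 or CT 3 and 1 without CT 2. DESeq2 with the block called 1 of the other ion transport genes, CLCA1 (log2 fold change 0.80), against 0. Their median was 0.01 on log2(FPKM + 1) and 0.01 on log2(FPKM + 0.1), and 0.14 in the 4 libraries with W-linked transcripts, against 0.08. On the FPKM scales the median of all genes tested was -0.06 and -0.07, against 0.01; the cause of the other shifts was not tested. The fit to those 4 libraries and DESeq2 with the block were added after the data were examined. OTOP3 rests on 4 to 16 counts per CT library, where a few reads change the ratio.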

Other observations

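Some ion transport genes that the filter on low counts left out had most of their reads in FOS 1. ATP6V0A4, a subunit of the vacuolar proton pump found in acid-secreting cells of the mammalian kidney, had 56, 7 and 30 counts in FOS 1 to 3 and 5, 6 and 5 counts in CT 1 to 3. All FOS libraries lay above all CT libraries, FOS 2 by 1 count, and FOS 1 was the highest and FOS 2 the lowest FOS library, as for OTOP3. AQP8, a water channel of the mammalian colon, had 26, 0 and 2 counts in FOS 1 to 3 and 0, 2 and 0 counts in CT 1 to 3. Neither gene entered the main fit, and both were picked after their values were seen. Fits without that filter included them, and those results are not reported here.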
